A study of Mus musculus with 304 samples.

Results

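The genes of the mitochondrial respiratory chain were followed in single granule cells of the dentate gyrus, the entry region of the mouse hippocampus. The count table holds 22800 genes, and members were taken by symbol: those starting with Nduf, Uqcr, Atp5 or mt-, Cox followed by a digit, and Sdha to Sdhd, with pseudogene symbols left out. This gave 82 nuclear subunits, 19 nuclear assembly factors or other genes, and 15 genes carried by mitochondrial DNA, of which 13 code for proteins and 2 for ribosomal RNA. Each library holds the cytosol of 1 cell drawn into a patch pipette (Patch-seq). The 5 groups were 29 cells taken 14 days and 58 cells taken 1 day after an injection of 70 nl of 5 mM kainic acid, which excites neurons through glutamate receptors, into the hippocampus; 31 control cells of mice without an injection; and 71 and 59 cells from mice given a viral vector (AAV) for Id2 or for GFP 1 month earlier. The day 1 cells came from the injected side, and the side of the day 14 cells is not labelled. The labels used here state no strain, sex, age, viral promoter or number of mice. No label names an animal, so each group stands as 1 sample, no difference between groups was tested, and the intervals below cover the counting error of reads only.

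The respiratory chain passes electrons from NADH (complex I) and succinate (complex II) through complex III to oxygen at complex IV, and the proton gradient built on the way drives ATP synthase, complex V. Neurons depend on it for the ATP that restores ion gradients after firing. Complex II is coded wholly in the nucleus, while the other 4 complexes mix nuclear subunits with a few subunits coded by mitochondrial DNA, which is transcribed inside the organelle and also codes for the RNAs of its own ribosome. Assembly factors help to build a complex without staying in it.

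Values are CPM, the reads of a gene per 1000000 summed reads of its group, and log2 ratios were taken after adding 1 CPM. A gene was counted as measured where it averaged at least 5 CPM over the 5 groups and had a read in at least 20% of the 248 cells, which kept 7988 genes, among them 90 nuclear members and 12 of the 15 mt- genes. The 14 members left out were the isoform genes Cox4i2, Cox6a2, Cox6b2, Cox7a1, Cox7b2, Cox8b, Cox8c and Ndufa4l2, the assembly or other genes Ndufaf1, Ndufaf6 and Atp5sl, and mt-Atp8, mt-Nd3 and mt-Nd4l. Summed reads were 259910098 at day 14, 464410001 at day 1, 67177695 in control cells, 266116534 with Id2 and 221823689 with GFP. Control cells were the shallowest, with a median of 1738610 reads against 7615490 at day 14 and 6834550 at day 1. Over the measured members, the 95% exact Poisson interval of the CPM reached at most 7.51% to either side. Markers of granule cells were read in each group but at unequal levels. The 10 markers summed to 2211 CPM at day 14, 1743 CPM at day 1 and 3757 CPM in control cells, and to 2687 CPM with Id2 and 3977 CPM with GFP. Of 9 measured, 6 were lower than in control cells at day 14 and 7 at day 1, and 8 were lower with Id2 than with GFP. Prox1 had a read in 65.5% of day 14, 81.03% of day 1 and 61.3% of control cells. Calb1 had one in 89.7%, 56.9% and 96.8% of cells in the same order, and C1ql2 in 41.4%, 58.6% and 67.7%. The part of these levels in the results below was not tested. Titles differ between kainate cells and control cells, and the 2 kainate days have title numbers that do not overlap; if titles mark batches, batch and group cannot be told apart in these comparisons.

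RNA of microglia was present in unequal amounts. The 14 microglia markers summed to 6365 CPM at day 14, 759 CPM at day 1 and 3515 CPM in control cells, and to 600 CPM with Id2 and 175 CPM with GFP. Single cells ranged from 0 to 26276 CPM at day 14 (median 3119), 0 to 24613 at day 1 (median 53.2), 0 to 14763 in control cells (median 1364), 0 to 9772 with Id2 (median 108.9) and 0 to 8177 with GFP (median 3.56). At least 1000 CPM was reached in 20 day 14, 8 day 1, 17 control, 11 Id2 and 2 GFP cells. Of the 14 markers 9 were measured, and P2ry12 was at 0 reads at day 1. Without these cells the log2 ratio of 35 of the 90 measured nuclear members moved by over 1.5-fold for day 14 over control, of 28 for day 1 over control, of 17 for day 14 over day 1, of 2 for Id2 over GFP and of 24 for GFP over control. Members higher than in control cells were then 68 of 90 at day 14 and 71 of 90 at day 1. Their median log2 ratio was then 0.53 at day 14, against 0.001 over all measured genes, and 0.40 at day 1, against 0.20. With all cells kept, the median over all measured genes was 0.04 at day 14 and 0.12 at day 1. Astrocyte markers summed to 228 CPM at day 14, 159 at day 1, 426 in control cells, 408 with Id2 and 240 with GFP, and oligodendrocyte markers to 330, 129, 162, 227 and 184 CPM in the same order. Endothelial and pericyte markers stayed at or below 45.4 CPM in each group, and interneuron markers, mostly Gad1, lay between 708 and 1348 CPM.

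Nuclear respiratory chain genes took a larger share of the reads in kainate cells than in control cells. They held 1.99% of summed reads at day 14, 1.78% at day 1 and 1.37% in control cells, and 1.72% with Id2 and 1.74% with GFP. The median cell was at 1.81% at day 14 (0.594% to 3.22%), 1.63% at day 1 (0.777% to 2.92%) and 1.36% in control cells (0.748% to 2.78%). With Id2 the median cell was at 1.64% (0.708% to 2.96%) and with GFP at 1.63% (1.04% to 3.76%). The cells of the 5 groups overlapped widely. The share of the mt- genes had another order. The median cell was at 0.319% at day 14 (0.000398% to 6.80%), 0.201% at day 1 (0.0199% to 1.51%) and 0.823% in control cells (0.0598% to 4.03%). It was at 0.281% with Id2 (0.0404% to 26.6%) and 0.295% with GFP (0.0422% to 14.1%). Over 1% of reads was reached by 15 of 31 control cells, but by 3 of 29 day 14 and 2 of 58 day 1 cells.

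**Figure D1:**
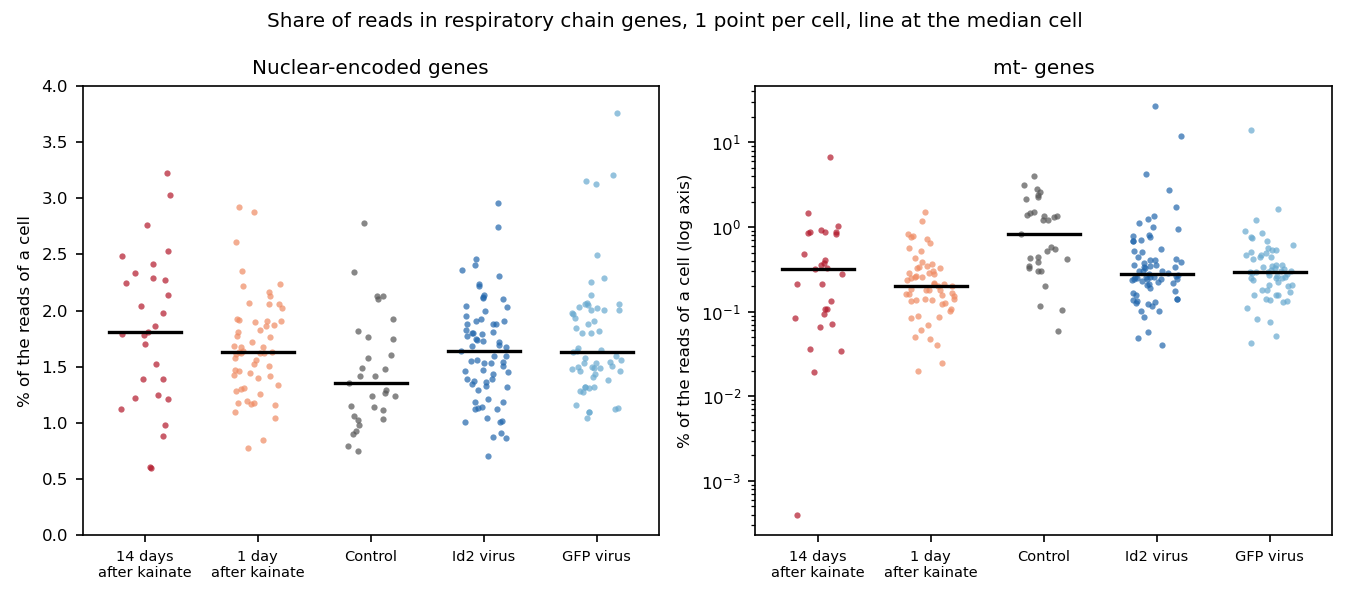
Share of the reads of each cell (y axis, %) in the nuclear genes (left, linear axis) and the 15 mt- genes (right, log axis) in the 5 groups, with 1 point per cell and a black line at the median cell. Control cells have the lowest median of nuclear genes, 1.36%, and the highest of mt- genes, 0.823%; single Id2, GFP and day 14 cells reach 26.6%, 14.1% and 6.80% of mt- reads.

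Within a group, nuclear and mt- shares were positively related across cells. Spearman's rho was 0.63 at day 14 (29 cells), 0.36 at day 1 (58 cells) and 0.52 in control cells (31 cells), and 0.18 with Id2 (71 cells) and 0.27 with GFP (59 cells). Both shares come from the same library and share its depth. The nuclear share was related to depth with a rho of 0.51 at day 14, 0.42 at day 1 and -0.15 in control cells. For the mt- share the rho with depth was -0.004, 0.37 and -0.38 in the same order. With Id2 and GFP it was 0.25 and -0.04 for the nuclear share, and -0.08 and -0.33 for the mt- share. The part of depth in the relation of the 2 shares was not tested.

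At day 14 most nuclear members stood above control cells. Of the 90 measured, 77 were higher, against 51.8% of all measured genes, and their median log2 ratio was 0.52, against 0.04 over all measured genes. At least 2-fold higher were 21 of the 90, against 18.2% of all genes, a share not far from the background, and 2 were at least 2-fold lower, against 16.4%. The members thus lay above control cells as a body and mostly by less than 2-fold. Their median, like that at day 1 below, was under the 1.5-fold at which a list value is called. At day 1 66 of 90 were higher, against 54.8% of all genes, with a median of 0.38 against 0.12. At least 2-fold higher were 17, against 19.6%, and 2 were at least 2-fold lower, against 14.7%. Both days share the control cells, so the 2 comparisons are not independent. With cells thinned to 100000 reads, which left out 2 of the 31 control cells as too shallow, the medians were 0.43 at day 14 and 0.31 at day 1.

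Between the days the nuclear members differed less. At day 14 62 of 90 were higher than at day 1, against 46.3% of all genes, with a median of 0.20 against -0.07. At least 2-fold higher were 2, against 12.6%, and 3 were at least 2-fold lower, against 15.6%. Without the microglia-rich cells the median was 0.02, against -0.25 over all measured genes, so that the members' distance from all genes was about as before.

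The GFP virus cells, which had no kainate, also stood above control cells. Of the 90 members 75 were higher, against 56.6%, with a median of 0.50 against 0.14. That median too was under the 1.5-fold at which a list value is called. At least 2-fold higher were 12, against 19%, and none was at least 2-fold lower, against 12.3% of all genes. With GFP cells in place of control cells, the median log2 ratio of the nuclear members was 0.15 at day 14, against -0.09 over all measured genes, and -0.10 at day 1, against 0.01. The distance of kainate cells from cells without kainate thus depended on which cells without kainate were used. GFP, kainate and control cells carry different titles, and virus and title set cannot be told apart here.

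**Figure D2:**
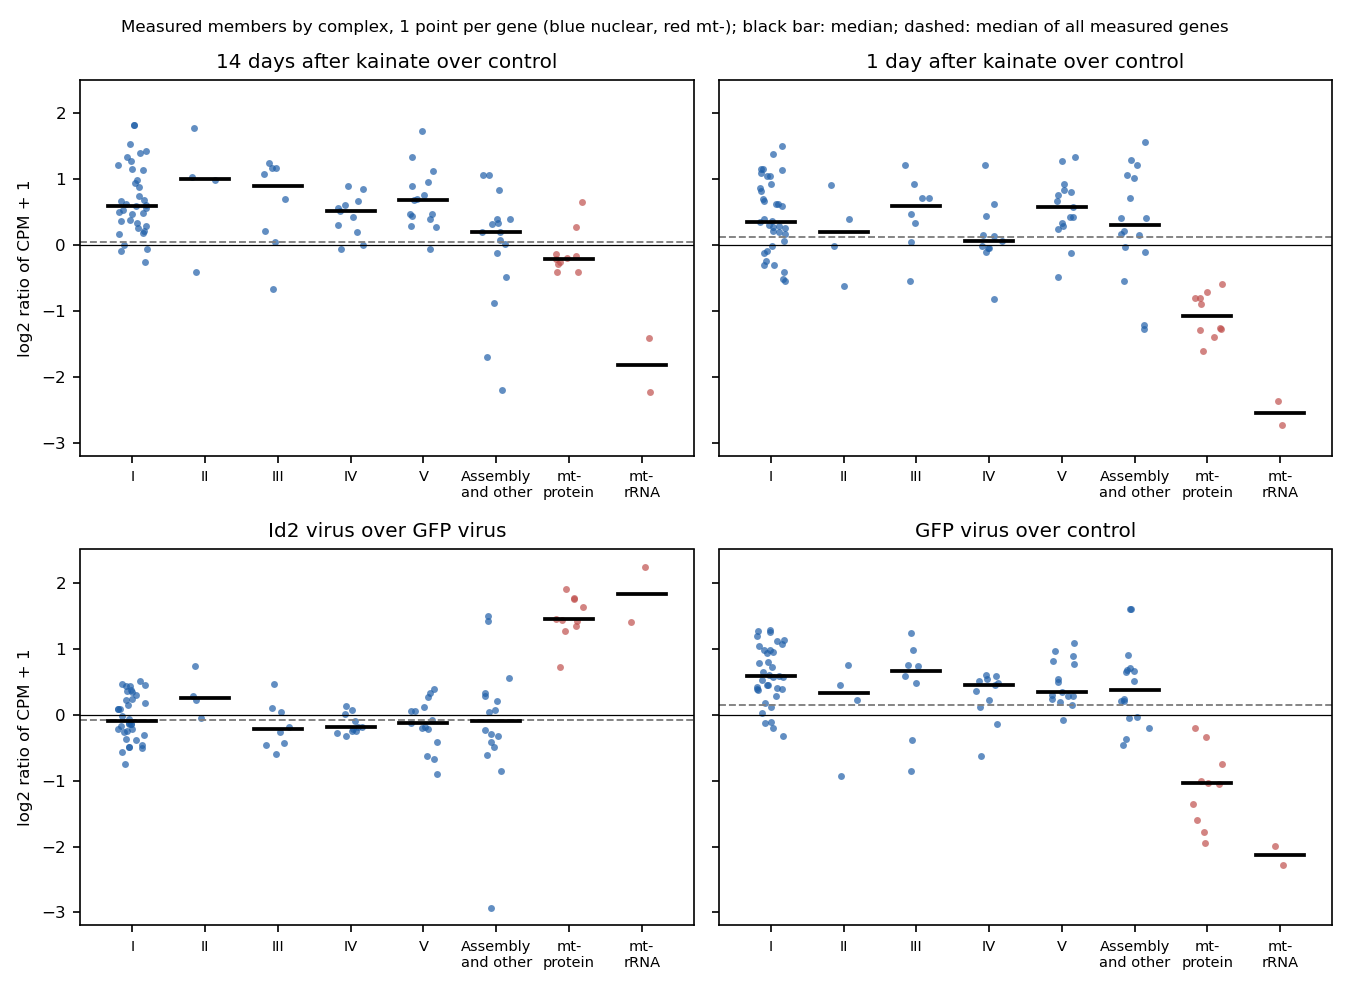
Log2 ratio of CPM + 1 (y axis) of each measured member in 4 comparisons, by complex for nuclear subunits (I to V), for nuclear assembly factors and other nuclear genes, and for mt- genes (x axis). Blue points are nuclear genes, red points mt- genes, black bars group medians and the dashed line the median of all measured genes; at day 1 the nuclear medians of complexes I to V lie between 0.07 and 0.59, while that of the mt- protein genes is -1.07.

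Counts by complex and of assembly factors are to be read against all measured genes. Of these 51.8% were higher than in control cells at day 14 (median 0.04) and 54.8% at day 1 (median 0.12). In GFP cells, which had no kainate, 56.6% of all genes were higher than in control cells (median 0.14). Of nuclear subunits, 32 of 36 of complex I (0.58) and 3 of 4 of complex II (0.34) were higher there. For complex III it was 6 of 8 (0.67), for complex IV 9 of 11 (0.45) and for complex V 14 of 15 (0.35). Subunits standing above control cells were thus not particular to kainate cells. Complex I has 36 measured nuclear subunits. At day 14 32 of them were higher than in control cells with a median log2 ratio of 0.60, and at day 1 27 were, with a median of 0.36. The catalytic core, which carries the flavin and the iron-sulfur clusters, was higher in 7 of 7 genes at day 14 and in 6 of 7 at day 1. With GFP it was also higher than in control cells in 7 of 7 genes. Ndufs1, the largest core subunit, stood at 314 CPM at day 14 (95% exact Poisson interval 311 to 316), 196 CPM at day 1 and 87.7 CPM in control cells. Its median cell was at 268 CPM at day 14 (0 to 1404), 107.5 CPM at day 1 (0 to 795) and 0 CPM in control cells (0 to 1401). A read was found in 20 of 29 day 14, 42 of 58 day 1 and 12 of 31 control cells. The log2 ratio to control was 1.83 at day 14 and 1.15 at day 1, and the cells of the groups overlapped. GFP cells were at 213 CPM, and against them the ratio was 0.55 at day 14 and -0.12 at day 1. Ndufv1, which binds NADH, differed less: 196 CPM at day 14, 186 CPM at day 1 and 153 CPM in control cells. Ndufs7, next to the quinone site, was at 202, 156 and 166 CPM in the same order, with log2 ratios of 0.28 at day 14 and -0.09 at day 1.

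Among the 29 supernumerary subunits, which surround the core, 25 were higher at day 14 and 21 at day 1. Ndufa10 was at 359 CPM at day 14, 241 CPM at day 1 and 135 CPM in control cells. Its log2 ratio at day 14 was 1.40, but 0.41 without the microglia-rich cells. Ndufa5 was at 139 CPM at day 14, 143 CPM at day 1 and 54.2 CPM in control cells, with log2 ratios of 1.34 and 1.38, the second 1.99 without the microglia-rich cells. In the median cell it was at 109.3 CPM at day 14 (0 to 312), 103.8 CPM at day 1 (0 to 398) and 0.785 CPM in control cells (0 to 306). GFP cells were at 131 CPM, close to the kainate cells and above the control cells. Ndufb2 and Ndufs6 were the lowest of complex I at day 1, at 101.98 and 66.4 CPM, against 150 and 94.9 CPM in control cells. At day 14 they were at 144 and 94.7 CPM; without the microglia-rich cells Ndufb2 was at a log2 ratio of -0.69 to control in place of -0.05.

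Complex II, succinate dehydrogenase, is both a chain complex and an enzyme of the citric acid cycle. Its 4 subunits did not move together. At day 14 the anchor Sdhc, which helps to bind quinone and haem in the membrane, was at 112.6 CPM (111.3 to 113.9), against 61.3 CPM at day 1 and 32.1 CPM in control cells (30.8 to 33.5). The median cell had 72.9 CPM of Sdhc at day 14 (0 to 434), 55.1 CPM at day 1 (0 to 299) and 0 CPM in control cells (0 to 111.3). The log2 ratio of Sdhc at day 14 was 1.78, and between 1.02 and 2.11 in 16 alternatives, the lowest against GFP cells. Without the microglia-rich cells it was 1.03 at day 14 and, at day 1, 0.28 in place of 0.91. The flavoprotein Sdha, the catalytic subunit, was at 361 CPM at day 14, 310 CPM at day 1 and 479 CPM in control cells, and was lower at both days by summed reads. By the mean of log2(CPM + 1) over cells, however, day 14 was 0.61 above control cells, so its direction was not stable. The iron-sulfur subunit Sdhb was at 407 CPM at day 14, 271 CPM at day 1 and 205 CPM in control cells. The other anchor, Sdhd, was at 336 CPM at day 14, 163 CPM at day 1 and 164 CPM in control cells. In control cells 46.3% of the Sdhd reads came from 1 cell, and without microglia-rich cells the log2 ratio of Sdhd at day 14 was -0.77 in place of 1.03, and at day 1 -1.25 in place of -0.01. The part of microglial RNA in these values was not tested.

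Complex III had 7 of 8 nuclear subunits higher at day 14, with a median of 0.89, and 7 of 8 at day 1, with a median of 0.59. Uqcrc1, a core protein of the matrix side, was at 629 CPM at day 14, 528 CPM at day 1 and 278 CPM in control cells, with log2 ratios of 1.17 and 0.92. In the median cell Uqcrc1 was at 513 CPM at day 14 (0 to 1571), 384 CPM at day 1 (0 to 1672) and 2.72 CPM in control cells (0 to 1921). Uqcrfs1, the Rieske iron-sulfur protein that hands electrons on to cytochrome c1, went the other way. It was at 250 CPM at day 14, 409 CPM at day 1 and 397 CPM in control cells, so that day 14 was lower than day 1 (log2 ratio -0.71) and than control cells (-0.66). Reads of it were found in 62.1% of day 14, 84.5% of day 1 and 87.1% of control cells. Day 14 stayed below day 1 in 13 of 13 alternatives. With 237 CPM in Id2 and 219 CPM in GFP cells, however, day 14 was not below all cells without kainate.

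Complex IV, cytochrome c oxidase, showed the smallest median at day 1. Of 11 measured nuclear subunits 10 were higher at day 14 (median 0.52) and 6 at day 1 (median 0.07). At day 1 this was close to all measured genes, of which 54.8% were higher, with a median of 0.12. Cox4i1, the common form of a regulatory subunit, was at 457 CPM at day 14, 444 CPM at day 1 and 478 CPM in control cells, within 0.11 on the log2 scale. Cox6a1 had the highest ratio of day 14 to day 1 of the nuclear members by the rule used for naming genes. It stood at 275 CPM at day 14 (273 to 277), 126.8 CPM at day 1 (125.8 to 127.8) and 223 CPM in control cells (220 to 227). Its median cell was at 219 CPM at day 14 (0 to 1016), 110.7 CPM at day 1 (0 to 566) and 120.5 CPM in control cells (0 to 907). The log2 ratio of day 14 to day 1 was 1.11, and 0.59 without the microglia-rich cells. Day 1 over control was -0.81, but 0.14 without those cells.

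Several subunits of complex IV exist as isoforms, and 1 of each pair held nearly all of the reads. Per kilobase of transcript, Cox6a1 stood at 481 CPM per kb at day 14, 222 at day 1 and 391 in control cells, while its heart and muscle isoform Cox6a2 was at 6.01, 0 and 0. Cox7a2 stood at 435, 265 and 273 CPM per kb in the same order, and the heart and muscle isoform Cox7a1 at 0, 10.9 and 3.41. Cox8a was at 713, 531 and 481 CPM per kb, and Cox8b at 0, 0.0179 and 0. Cox8b had 11.3 CPM with Id2 and 0 with GFP, all of it in 2 of 71 Id2 cells. Cox4i1 reached 698 CPM per kb in GFP cells, and Cox4i2, an isoform known from lung, was at most at 1.29 CPM per kb in a group. Cox6b1 likewise exceeded Cox6b2, and Ndufa4 exceeded Ndufa4l2, which was at most at 0.185 CPM per kb in each group. Cox8c had no read in any group, and the 3 counts that a count of 0 allows correspond to 0.0447 CPM in control cells, the shallowest group.

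Complex V had 14 of 15 measured nuclear subunits higher at day 14 (median 0.69) and 13 of 15 at day 1 (median 0.58). Atp5b, the catalytic beta subunit, was at 1893 CPM at day 14, 1942 CPM at day 1 and 1442 CPM in control cells. Its partner in the catalytic ring, Atp5a1, was at 1389 CPM at day 14, 1248 CPM at day 1 and 1020 CPM in control cells. The proton-carrying c-ring is coded by 3 genes for the same mature protein. Per kilobase Atp5g1 stood at 591 CPM per kb at day 14, 518 at day 1 and 271 in control cells, and Atp5g3 at 572, 523 and 293. Atp5g2 stood at 39.6, 48.7 and 31.9 CPM per kb, but 100% of its 50-base windows are also found in other annotated genes, so that its counts are uncertain. Without the microglia-rich cells the log2 ratio at day 14 was 1.17 in place of 0.29 for Atp5g2, and 0.29 in place of 0.96 for Atp5g3. Counts are also uncertain for 9 other nuclear members with over 50% of windows shared. These are Atp5g1, Atp5h, Atp5l, Atp5o, Cox11, Cox16, Cox17, Cox20 and Cox7c. The 45 nuclear members without a shared window, 36 of them measured, had a median of 0.59 at day 14 and 0.35 at day 1. Atp5k, a small subunit of the membrane part, was at 104.7 CPM at day 14, 79.1 CPM at day 1 and 30.7 CPM in control cells.

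Assembly factors were nearer to control cells than the subunits at day 14 and close to the subunits at day 1. Of 16 measured, a class that here includes the coupling factor gene Atp5s, 11 were higher at day 14 and 11 at day 1, with medians of 0.20 and 0.31. The 74 measured subunits had medians of 0.61 and 0.38. Day 14 was below day 1 in 11 of the 16, and in 8 of 10 factors of complex IV, whose median was -0.54. Over all measured genes 46.3% were higher at day 14 than at day 1, with a median of -0.07. The difference between the classes was not tested. Ndufaf4, an assembly factor of complex I, was highest at day 1: 48.6 CPM at day 14, 139 CPM at day 1 (138 to 140) and 46.1 CPM in control cells (44.5 to 47.7). The median cell had 0 CPM of it at day 14 (0 to 299), 96.6 CPM at day 1 (0 to 651) and 0 CPM in control cells (0 to 660). A read was found in 11 of 29 day 14, 43 of 58 day 1 and 8 of 31 control cells. The log2 ratio was 1.57 for day 1 over control, and between 0.59 and 3.29 in 16 alternatives, the lowest without the microglia-rich cells. Day 14 over day 1 was -1.50, and -0.63 without the microglia-rich cells. Ndufaf7, a methyltransferase that acts on a core subunit, was also lower at day 14, at 23.8 CPM, against 55.6 CPM at day 1, with 23.4 CPM in control cells. Without the microglia-rich cells its ratio to control was -1.37 at day 14 in place of 0.02, and 0.04 at day 1 in place of 1.21. Ndufaf5, which modifies another core subunit, had 56.9 CPM at day 14, 29.97 CPM at day 1 and 26.6 CPM in control cells. Its ratios to control, 1.07 at day 14 and 0.17 at day 1, were 4.10 and 2.64 without the microglia-rich cells.

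Among the complex IV factors Cox20, which helps to mature COX2, was at 36.4 CPM at day 14, 49.1 CPM at day 1 and 120 CPM in control cells, with log2 ratios of -1.70 and -1.28, which were -0.66 and -0.57 without the microglia-rich cells. Cox16 was at 11.7 CPM at day 14, 39.2 CPM at day 1 and 57.2 CPM in control cells, where 53.3% of its reads came from 1 cell. Both have much of their sequence in other annotated genes (68.3% of 50-base windows for Cox20 and 88.7% for Cox16), so their counts are uncertain. Cox7a2l, which helps complexes III and IV to join into supercomplexes, was at 110 CPM at day 14, 125.2 CPM at day 1 and 61.3 CPM in control cells. A read of Cox7a2l was found in 75.9%, 72.4% and 38.7% of cells in the same order.

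Promoters of the nuclear members were read from RefSeq (GRCm38.p6), from 250 bases before to 50 after the start, for the 83 members with an entry. The motif of NRF1, a factor known to regulate respiratory chain genes, was searched on both strands by its core CGCATGCG. It was present in 11 of the 83, against 2.07% of the 27025 genes with a promoter in the table. The ETS core bound by GABP, searched as CCGGAAG on both strands, was present in 22 of the 83, against 9.93%. Overlap between the motifs was allowed. Windows before the start of 3 genes named above, which are among those with the highest or the lowest ratios of day 14 to day 1, are shown with each motif in capitals. These are Ndufaf4 (chr4:24897963-24898082, plus strand), Cox6a1 (chr5:115348959-115349124, minus strand) and Sdhd (chr9:50603850-50603969, minus strand).
Ndufaf4: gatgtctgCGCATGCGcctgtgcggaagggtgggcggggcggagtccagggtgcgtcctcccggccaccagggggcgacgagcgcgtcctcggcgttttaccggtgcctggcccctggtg
Cox6a1: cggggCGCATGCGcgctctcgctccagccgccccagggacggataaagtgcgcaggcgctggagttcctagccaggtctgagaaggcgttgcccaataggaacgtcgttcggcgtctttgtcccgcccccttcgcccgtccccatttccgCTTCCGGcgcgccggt
Sdhd: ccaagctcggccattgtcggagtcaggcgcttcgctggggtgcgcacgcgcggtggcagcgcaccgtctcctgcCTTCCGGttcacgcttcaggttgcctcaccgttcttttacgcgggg
Ndufaf4 holds the NRF1 letters, Sdhd the ETS letters and Cox6a1 both. Of the other genes named for their ratio of day 14 to day 1, Ndufaf5 has the NRF1 letters. Ndufaf7 and Uqcrfs1 are not among the members found with either motif. The 3 windows thus do not show how common the motifs are among such genes. The 11 measured members with the NRF1 letters had median log2 ratios of 0.59 at day 14 and 0.36 at day 1, against 0.51 and 0.39 for the 66 without. The 21 with the ETS letters had 0.69 and 0.40, against 0.49 and 0.38 for the 56 without. A match describes the letters of the window and not a bound site.

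The mt- genes stood at very unequal levels along the mitochondrial genome. Of the low ones, 5 had near-identical annotated copies in the nuclear genome, while mt-Atp8, low as well, had none. Per kilobase mt-Cytb, coding for cytochrome b of complex III, was at 1209 CPM per kb at day 14, 658 at day 1 and 1608 in control cells. The complex I gene mt-Nd1 was at 1060, 761 and 1406, and mt-Co1, the catalytic subunit of complex IV, at 1029, 373 and 1129. In the stretch between mt-Co1 and mt-Nd4, in contrast, mt-Co2 was at 16.7, 10.5 and 19.4 CPM per kb, mt-Co3 at 28.8, 11.5 and 32.4, and mt-Atp6 at 24.6, 16.8 and 30.4. The complex I genes mt-Nd3 and mt-Nd4l were lower still, at 9.17, 2.40 and 6.54 and at 2.47, 1.97 and 4.61 CPM per kb, and did not pass the filter. These 5 genes ranged from 1.97 to 32.4 CPM per kb over the 5 groups, while mt-Cytb, mt-Nd1, mt-Nd2, mt-Nd5 and mt-Nd6 ranged from 109.4 to 2115, with no overlap. Of the 50-base windows of the 5 low genes, 97.99% to 100% are also found in another annotated gene (GENCODE vM21, GRCm38), against at most 8.19% for the 5 high ones. For mt-Co1 51.1% and for mt-Nd4 62.2% are shared, and these stood at 145 to 1129 CPM per kb.

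Of the annotated copies, 7 are pseudogenes on the minus strand of chr1:24611535-24616197, in the order of their mitochondrial counterparts. Others lie on chromosome 2, where Gm13340 holds 27.5% of the windows of mt-Co1, against 28.7% in the copy on chromosome 1, and Gm13341 holds 35.3% of those of mt-Co2. The copy of mt-Co2, Gm28661, has 0 mismatches over 681 bases, that of mt-Co3 0 over 783, that of mt-Atp6 0 over 678, and that of mt-Nd3, Gm28438, 1 over 345. The first 60 bases of 2 of the genes and of their copies are shown because they are what a read would have to tell apart. The coordinates are chrM:7013-7072 for mt-Co2, chr1:24615506-24615565 for Gm28661, chrM:9459-9518 for mt-Nd3 and chr1:24613060-24613119 for Gm28438, and capitals mark the base that differs.
mt-Co2: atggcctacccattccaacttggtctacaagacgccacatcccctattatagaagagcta
Gm28661: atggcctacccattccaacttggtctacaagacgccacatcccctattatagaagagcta
mt-Nd3: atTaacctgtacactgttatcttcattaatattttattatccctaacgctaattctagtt
Gm28438: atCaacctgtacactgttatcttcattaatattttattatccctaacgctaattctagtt
The remaining gene of the stretch, mt-Atp8, lies between mt-Co2 and mt-Atp6 and was equally low, at 27.4, 18.2 and 30.6 CPM per kb at day 14, at day 1 and in control cells. No annotated transcript holds its windows. The copies of mt-Atp6 and mt-Co2 on chromosome 1 lie 233 bases apart, against 230 bases between the genes themselves. The bases between these copies were not read, so whether they hold a copy of mt-Atp8 is not known. The labels used here do not state how reads that fit several places were counted. Whether this set the levels of these genes was not tested, and their levels are uncertain.

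**Figure D3:**
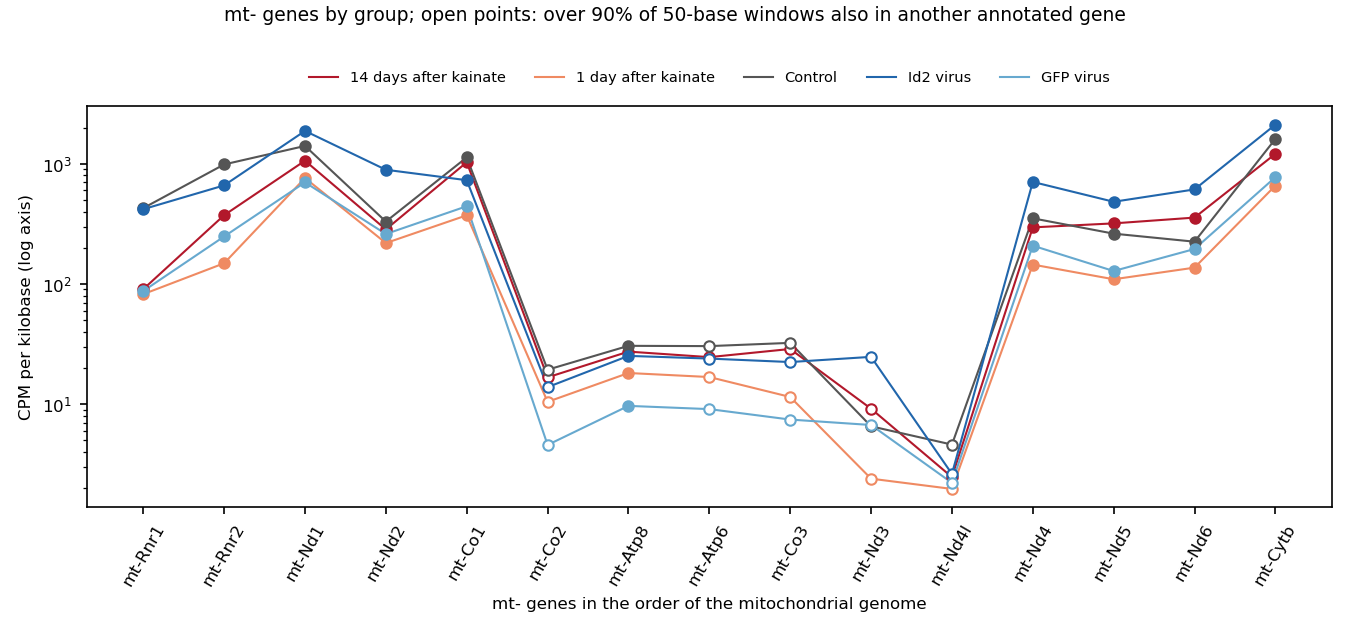
Level of each mt- gene (y axis, CPM per kilobase, log axis) in the order of the mitochondrial genome (x axis), with 1 line per group. Open points mark genes with over 90% of their 50-base windows in another annotated gene; from mt-Co2 to mt-Nd4l no group exceeds 32.4 CPM per kb, while mt-Cytb stands between 658 and 2115.

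Of the mt- genes, the 13 that code for proteins summed to 5517 CPM at day 14, 2786 CPM at day 1 and 6421 CPM in control cells. At day 1 10 of 10 measured were lower than in control cells, 5 of them at least 2-fold, against 14.7% of all genes, and the log2 ratio of the sum was -1.20. At day 14 8 of 10 were lower, none by 2-fold or more, against 16.4% of all genes, and the ratio was -0.22. The nuclear and mt- members thus lay on different sides of control cells at day 1. For mt-Co1 the median cell was at 596 CPM at day 14 (0 to 16396), 412 CPM at day 1 (0 to 2574) and 1193 CPM in control cells (0.538 to 10650). For mt-Cytb it was at 650 CPM at day 14 (0 to 14624), 454 CPM at day 1 (0 to 4485) and 1517 CPM in control cells (0.538 to 13852). Both genes overlapped between the groups.

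The day 14 sum rested on few cells. Of all mt- reads at day 14, 46.7% came from 3 cells, and the highest cell had 6.80% of its reads in mt- genes, against 1.48% in the next. Without the 1 day 14 cell above 5%, the log2 ratio of the protein genes was -0.95 to control in place of -0.22, and 0.25 to day 1 in place of 0.99. With the mean of log2(CPM + 1) over cells in place of the sum, day 14 was at -1.67 to control and at -0.21 to day 1, so that day 14 and day 1 changed order. The direction of day 1 against control was the same in 18 of 18 alternatives. Its size did not: without microglia-rich cells, which were 17 of the 31 control cells, the ratio was -0.54, and with GFP cells in place of control cells it was -0.18.

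The RNAs of the mitochondrial ribosome differed most. The 16S RNA gene mt-Rnr2 was at 590 CPM at day 14, 235 CPM at day 1 and 1561 CPM in control cells, with log2 ratios of -1.40 and -2.73. In the median cell it was at 273 CPM at day 14 (0.361 to 4967), 130 CPM at day 1 (0 to 1215) and 1352 CPM in control cells (127.9 to 12793). The 12S RNA gene mt-Rnr1 was at 86.4 CPM at day 14, 78.5 CPM at day 1 and 408 CPM in control cells. GFP cells were low as well, at 393 CPM for mt-Rnr2 and 83.4 CPM for mt-Rnr1. Id2 cells were at 1045 CPM for mt-Rnr2 and 400 CPM for mt-Rnr1, with 46.04% and 59.5% of these reads in 1 cell each. The nuclear ribosomal RNA gene Rn18s-rs5 was also highest in control cells, at 1166 CPM at day 14, 3888 CPM at day 1 and 36508 CPM in control cells, 4882 CPM with Id2 and 4665 CPM with GFP. The mt- rRNA genes summed to 677 CPM at day 14 and 314 CPM at day 1. With Id2 they summed to 1445 CPM and with GFP to 476 CPM. In the median cell they held 0.0311% of reads at day 14, 0.0177% at day 1 and 0.176% in control cells. With Id2 that share was 0.0293% and with GFP 0.0314%. Lars2 was at 573 CPM at day 14, 1498 CPM at day 1 and 5812 CPM in control cells. Within control cells, the 22 with J titles had a median mt- share of 1.27% and 47482 CPM of Rn18s-rs5, and the 9 others 0.428% and 12787 CPM. The part of ribosomal RNA carried into the libraries in the mt- result was not tested.

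Id2, a helix-loop-helix protein that holds back other such factors, was compared with GFP, each given by an AAV. By summed reads nuclear members lay close to all genes: 39 of 90 were higher with Id2, against 45.3% of all genes, and the median log2 ratio was -0.13, against -0.08. At least 2-fold higher were 2, against 10.1%, and 1 was at least 2-fold lower, against 11.8%. In 15 of 15 alternatives 26 of the 51 lower members stayed lower, and 4 of the 39 higher ones stayed higher. The median was -0.59, against -0.24 over all genes, by the mean of log2(CPM + 1). In cells titled IDS to 95 it was -0.09, against -0.18. By complex, the medians ran from -0.22 in complex III to 0.25 in complex II. Sdhb was at 294 CPM with Id2 and 240 CPM with GFP. Cox11, which delivers copper to complex IV, had 9.06 CPM with Id2 and 75.8 CPM with GFP, and a read in 18.3% and 27.1% of cells. Its log2 ratio was -2.93 from summed reads, -1.62 from mean CPM and -0.85 from mean log2(CPM + 1), and 35.3% of the GFP reads came from 1 cell. Cox15, which makes the haem of complex IV, had 109.4 CPM with Id2 and 37.96 CPM with GFP, with log2 ratios of 1.502, 0.84 and 0.22 in the same order. Ndufa6 was at 82.8 CPM with Id2 and 140 CPM with GFP, and Atp5a1 at 753 and 1203 CPM; Atp5a1 was lower in 15 of 15 alternatives.

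The mt- protein genes summed to 8494 CPM with Id2 and 3151 CPM with GFP, and all 10 measured were higher with Id2, against 45.3% of all genes. The log2 ratio of the sum was 1.43. It came from few cells: 63.8% of the mt- reads of Id2 cells lay in 3 of 71 cells, which had 26.6%, 11.99% and 4.25% of their reads in mt- genes. Without the 2 Id2 cells and the 1 GFP cell above 5%, the ratio was 0.35. The median cells were close, at 0.281% with Id2 and 0.295% with GFP. Between the title sets the ratio had opposite signs, 1.94 in cells titled IDS to 95 (43 Id2 and 43 GFP cells) and -0.25 in cells with later IDS titles (28 Id2 and 16 GFP cells). For mt-Nd1, for example, 36.7% of the Id2 reads came from 1 cell.

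Between GFP and control cells the mt- protein genes were lower in 10 of 10 measured, while 56.6% of all genes were higher, with a log2 ratio of the sum of -1.03, and -0.43 without the microglia-rich cells. Sdha was at 250 CPM with GFP and 479 CPM in control cells, and lower in 17 of 17 alternatives. Ndufb7 was at 97.7 CPM with GFP and 44.5 CPM in control cells, a log2 ratio of 1.116 that was 0.39 without the microglia-rich cells.

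Other genes that serve the chain were taken as whole lists, to be read against 51.8% of all measured genes higher at day 14 (median 0.04) and 54.8% at day 1 (median 0.12). Assembly factors with other symbols were higher than control cells in 14 of 20 measured at day 14 (median 0.59) and in 12 of 20 at day 1 (0.15). Sdhaf2, which attaches flavin to Sdha, was at 108.6 CPM at day 14, 88.2 CPM at day 1 and 11.5 CPM in control cells. Cytochrome c, quinone synthesis and inhibitor genes were higher in 11 of 13 at day 14 (0.49) and in 7 of 13 at day 1 (0.05). At day 1 both lists were near the background. Regulators of mitochondrial genes were higher in 5 of 7 at day 14 and in 6 of 7 at day 1. Nrf1 itself was at 76.5 CPM at day 1 and 26.7 CPM in control cells, a log2 ratio of 1.49. At day 14 Nrf1 was instead the lowest of the 7, with a log2 ratio to control of -1.11. Gabpb1 was at 45.1 CPM at day 1 and 17.8 CPM in control cells. Factors of mitochondrial DNA expression were higher in 10 of 14 at day 14 (0.76) and in 9 of 14 at day 1 (0.53), while the mt- protein genes were higher in 2 of 10 and 0 of 10. Ssbp1, which binds single-stranded mitochondrial DNA, was at 55.9 CPM at day 14, 33.97 CPM at day 1 and 5.67 CPM in control cells. Proteins of the mitochondrial ribosome were higher in 55 of 75 at day 14 (0.39) and in 60 of 75 at day 1 (0.52). In GFP cells, which had no kainate, 56.6% of all genes were higher than in control cells (median 0.14). There the ribosome proteins were higher in 50 of 75 (0.46) and the assembly factors in 12 of 20 (0.71). Cytochrome c, quinone and inhibitor genes were higher in 8 of 13 (0.13). For regulators it was 4 of 7 (0.09) and for expression factors 9 of 14 (0.16). The shifts of some lists were thus not limited to kainate cells.

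Lists of fuel supply and upkeep were read against the same shares and medians of all genes. Glycolysis genes were higher in 14 of 17 at day 14 (median 0.33) and in 10 of 17 at day 1 (0.08). Ldha, which makes lactate, was at 1029 CPM at day 14 and 358 CPM in control cells, while Slc2a3, the neuronal glucose transporter, was at 265 CPM at day 1 and 613 CPM in control cells. Citric acid cycle and pyruvate dehydrogenase genes were higher in 13 of 21 (0.45) and 15 of 21 (0.28). Pdk2, a kinase that switches pyruvate dehydrogenase off, was at 11.3 CPM at day 1 and 63.3 CPM in control cells. Carriers and porins were higher in 10 of 16 at both days (0.42 and 0.31); Mcu, the calcium uniporter, was at 159 CPM at day 1 and 45.8 CPM in control cells. Antioxidant genes were higher in 6 of 10 and 4 of 10 (0.09 and -0.12), and genes of dynamics and mitophagy in 11 of 15 and 9 of 15 (0.27 and 0.06). Bnip3, a mitophagy receptor, was at 285 CPM at day 14 and 57.2 CPM in control cells, and Pink1, a kinase that marks damaged mitochondria, at 39.9 CPM at day 1 and 152 CPM in control cells. For GFP over control, against 56.6% of all genes (median 0.14), glycolysis genes were higher in 11 of 17 (0.13). Citric acid cycle and pyruvate dehydrogenase genes were then higher in 15 of 21 (0.28) and carriers and porins in 11 of 16 (0.33). Antioxidant genes were higher in 6 of 10 (0.27) and dynamics and mitophagy genes in 11 of 15 (0.28).

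**Figure D4:**
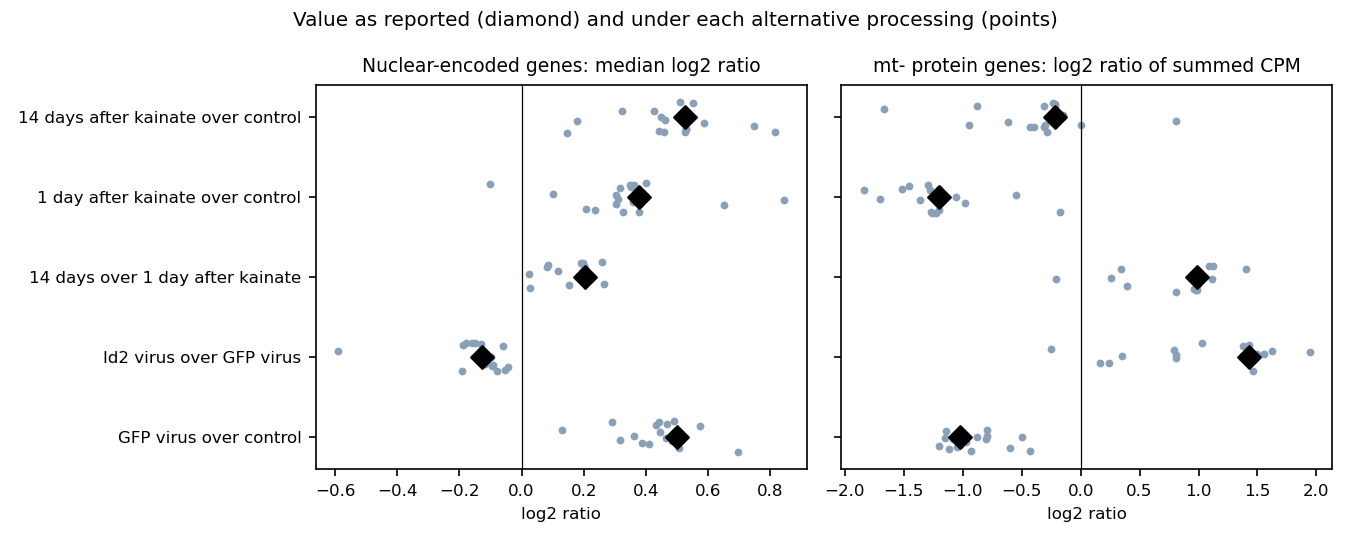
Values of the 5 comparisons (y axis) as log2 ratios (x axis), for the median of the nuclear members (left) and the sum of the mt- protein genes (right). Diamonds are the values as reported and points the same values under each alternative processing; the nuclear medians change sign in 1 comparison, day 1 over control (-0.10 with GFP cells in place of control cells), and the mt- sums in 3.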

How the data were processed

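Libraries were made with the Nextera XT kit from cytosol drawn through a patch pipette, per the labels. The submitters' processing notes name Trimmomatic, STAR, featureCounts and GRCm38, without versions; settings for strand and multi-mapping reads are not stated there. One table deposited by the authors holds counts of reads for 291 cells, and another a scaled signal for 252 cells, equal to the counts times 1 factor per cell, which served as an alternative. File names would swap the 2 units, which were settled on the values. Of 304 samples, 13 are without a matching column and were left out, and 39 cells labelled as failing quality control entered only an alternative. No 2 of the 248 cells correlated above 0.566. Counts were summed per group and scaled to CPM in Python 3.11.15 with pandas 2.3.3; TMM factors, an alternative, came from edgeR 4.0.16. No test was run, since cells are not replicates, and reads carry no molecular identifier. A gene is given as called where it differs at least 2-fold, a list value where it differs at least 1.5-fold. Shared sequence is the share of the 50-base windows of 1 transcript per member found in transcripts of other genes (GENCODE vM21); 115 of 116 members were matched. A longer NRF1 motif, searched first, gave fewer matches, and its members then lay above rather than below the other members at day 1. The ratio script was tested on simulated data.

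Named genes are the complex I core, complex II, Uqcrfs1, isoform pairs, Atp5a1, Atp5b, the c-ring and the mt- genes. To these were added, per comparison, the 3 highest and 3 lowest measured nuclear members ranked on whichever of 3 log2 ratios was nearest 0 (from summed counts, from mean CPM and from mean log2(CPM + 1)), provided all had 1 sign, and up to 2 genes of each other list. Uqcrc1, Atp5k, Rn18s-rs5 and Lars2 were named after their values were seen. The members, lists and rules were chosen with earlier results of these data known.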

Additional observations from a re-analysis of the deposited data

Results flagged for a closer look

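Outside the compared groups, 2 passing libraries are labelled low_DG and share their title numbers with control cells. In the first, the nuclear members held 3.07% of reads, above the highest of the 31 control cells at 2.78%, and mt- genes held 1.15%. In the second the shares were 1.81% and 0.438%. The difference was not tested.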

How the results depend on the processing

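The reported medians of the nuclear members are each smaller in size than 1.5-fold and so are not called by the rule for lists. A full loss of such a difference would still lie within 1.5-fold of it, so that margin says little here. In each alternative the median log2 ratio of the nuclear members stayed within 1.5-fold of its reported value. It changed sign only at day 1 with GFP cells in place of control cells (-0.10). Its range, with the median of all measured genes under the same alternative in brackets, was 0.15 (-0.09) to 0.82 (0.25) for day 14 over control, -0.10 (0.01) to 0.85 (0.54) for day 1 over control, 0.02 (-0.25) to 0.27 (-0.07) for day 14 over day 1, -0.59 (-0.24) to -0.04 (0.05) for Id2 over GFP and 0.13 (-0.11) to 0.70 (0.32) for GFP over control. With TMM factors these medians were 0.44, 0.30, 0.19, -0.10 and 0.39, and the median of all measured genes for GFP over control was 0.03 in place of 0.14.

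The log2 ratio of the summed mt- protein genes moved more, and the cause was not tested. For day 14 over control (-0.22) it was -1.67 with the mean of log2(CPM + 1), -0.95 without cells over 5% mt- reads, -0.88 without the 3 cells of each group with the highest mt- share and 0.81 with GFP cells in place of control cells. For day 1 over control (-1.20) it was -1.84 in the scaled table, -0.54 without microglia-rich cells and -0.18 with GFP cells. For day 14 over day 1 (0.99) it was -0.21 with the mean of log2(CPM + 1), 0.40 without microglia-rich cells, 0.25 without cells over 5% and 0.35 without the 3 highest cells. For Id2 over GFP (1.43) it was 0.81 with mean CPM, 0.16 with the mean of log2(CPM + 1), 0.79 without microglia-rich cells, 0.35 without cells over 5%, 0.81 after thinning, -0.25 in cells with later IDS titles and 0.24 without the 3 highest cells. For GFP over control (-1.03) it was -0.43 without microglia-rich cells.

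Of single nuclear members, 37 of the 77 higher at day 14 and 24 of the 66 higher at day 1 stayed higher in 16 of 16 alternatives. The alternatives on the 3 highest cells and on shared windows were chosen after seeing the data. No paired analysis was possible because the labels give no replicate numbers shared between groups and no test was run. The low depth of control cells limits genes near 0 there, and with 1 sample a group no value tells a group difference from one between mice.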
